A study of Mus musculus with 12 samples.

Results

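The genes described here encode the proteins of the cytosolic ribosome. The rule that picks them uses symbol, biotype and summed counts: protein-coding genes of GENCODE M21 named Rpl, Rps or Rplp followed by a digit, without the kinases named Rps6k and without Rps19bp1, and with at least 100 counts summed over the 12 libraries. The rule found 90 genes among the 54532 gene IDs of the count table, and 86 of them reached the count minimum. By name, 43 belong to the large subunit, 30 to the small subunit and 3 to the stalk, and 10 are second copies of another member. At the threshold, Rpl36a-ps1 was the lowest gene kept, with 274 counts, ahead of Rpl3l with 342. The 4 genes left out were Rpl39l with 15 counts, Rpl9-ps1 with 14, and Rpl10l and Rpl36-ps4 with 0. The rule uses no difference between groups, although the family was taken up with earlier results of these data known. All 86 members passed the filter on low counts.

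Messenger RNA was sequenced from bone marrow haematopoietic stem and progenitor cells (HSPCs), the cells from which the blood lineages arise. The 12 libraries form 4 groups of 3: uncultured HSPCs of young mice, uncultured HSPCs of aged mice, and HSPCs of aged mice kept in culture, either in vehicle or in uridine, the nucleoside that supplies the uracil nucleotides of RNA. All mice are labelled wild type, with strain labels that run from c57bl/6 to c57bl/15, so the strain is uncertain. The sources used here do not give the ages, the sorted surface markers, the length of culture or the dose of uridine. They also leave unstated if replicate libraries stem from different mice or culture wells, so a p-value covers the spread between libraries alone, and that spread may be technical.

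A ribosome carries a single copy of nearly every ribosomal protein, and the genes of this family are among the most highly expressed in growing cells. Their messengers typically begin with a C followed by a run of pyrimidines, the terminal oligopyrimidine tract, through which mTOR signalling and the binding protein Larp1 control their translation and stability. In blood, mutations of single ribosomal protein genes cause Diamond-Blackfan anaemia, a failure of red cell production. Haematopoietic stem cells are known for a low rate of protein synthesis, which makes the family of interest in aged and cultured HSPCs.

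The 30 bases around the annotated start of 7 members are shown because the start letters are the feature that the family is known for. The sequences are RefSeq's, on GRCm38.p6, read 5′ to 3′ on the gene's own strand, with 10 bases before the start and 20 from it. Capitals mark a C followed by at least 4 bases that are each C or T, beginning within 5 bases of the annotated start. The windows lie at chr3:90213629-90213658 on the minus strand for Rps27, chr11:114668570-114668599 on the plus strand for Rpl38, and chr7:141447641-141447670 on the plus strand for Rplp2. They lie at chr14:18270967-18270996 on the minus strand for Rpl15, chr9:66946076-66946105 on the plus strand for the upstream start of Rps27l, chr5:115559457-115559486 on the plus strand for Rplp0, and chr12:69184048-69184077 on the minus strand for Rpl36al.
Rps27: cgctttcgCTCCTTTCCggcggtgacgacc
Rpl38: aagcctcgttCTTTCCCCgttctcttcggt
Rplp2: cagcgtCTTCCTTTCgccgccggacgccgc
Rpl15: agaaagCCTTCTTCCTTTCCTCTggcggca
Rps27l: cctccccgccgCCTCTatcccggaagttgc
Rplp0: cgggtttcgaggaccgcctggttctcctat
Rpl36al: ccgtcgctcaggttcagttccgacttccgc
Of the 62 members in the RefSeq table, 14 (22.6%) had these letters exactly at the annotated start, against 3.01% of all 27025 genes of the table. Allowing 5 bases on either side, 30 of 62 (48.4%) had them, against 21.2% of all genes. A match is a description of the annotated start and not a mapped messenger end.

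The second set of sequences shows why counts of Rps27 and its copies are read with care. Rps27 (chr3:90212522-90213651, minus strand) and Rps27rt (chr9:114982366-114982739, minus strand, a gene model without introns) have the same 252 coding bases, letter for letter, in GENCODE M21 on GRCm38. Rps27l (chr9:66946086-66949516, plus strand) differs from them at 60 of 252 coding bases (76.2% identity), and capitals mark those bases in its coding sequence.
Rps27: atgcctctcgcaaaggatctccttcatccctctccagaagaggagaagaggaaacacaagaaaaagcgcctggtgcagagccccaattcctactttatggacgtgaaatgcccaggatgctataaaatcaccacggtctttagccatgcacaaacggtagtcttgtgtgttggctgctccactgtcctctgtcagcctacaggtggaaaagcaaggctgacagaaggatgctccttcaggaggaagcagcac
Rps27l: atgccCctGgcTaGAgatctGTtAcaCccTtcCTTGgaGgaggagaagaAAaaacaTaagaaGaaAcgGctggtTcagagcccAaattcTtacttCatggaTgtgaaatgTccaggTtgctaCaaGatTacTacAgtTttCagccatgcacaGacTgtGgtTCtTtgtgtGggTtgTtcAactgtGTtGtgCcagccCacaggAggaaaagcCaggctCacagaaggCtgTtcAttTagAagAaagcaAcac
Of the 100-base stretches of the Rps27 transcript, 98.4% occur in another annotated gene, against 0% of those of Rps27l. Reads of Rps27 and Rps27rt can therefore be split between these genes by the counting, whereas reads of Rps27l can be told apart.

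Library totals ran from 16785065 to 19025802 counts. Levels are CPM (a gene's share of its library's counts on a common scale) after TMM scaling, and tests are edgeR's quasi-likelihood tests with Benjamini-Hochberg adjustment over the 16675 genes that passed the filter, called at an adjusted p under 0.05. Immunoglobulin genes and Jchain, the products of plasma cells, held 21.6 to 21.9% of the counts in the uncultured aged libraries and 0.540 to 0.924% in the other 9. The summed level of 8 plasma cell markers was 25634 to 25891 CPM in uncultured aged cells and 634 to 643 CPM in uncultured young cells. That of 8 markers of mature neutrophils was 549 to 588 CPM in the former and 5378 to 5593 CPM in the latter. All 12 stem and progenitor markers were detected in each group. Their summed level was 1064 to 1081 CPM in young and 1043 to 1074 CPM in uncultured aged libraries. It was 1589 to 1596 CPM in vehicle and 1322 to 1376 CPM in uridine libraries. In bulk RNA, fewer cells of a type and less RNA per cell cannot be told apart.

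Among the members, levels per kilobase of transcript were highest for Rplp1, at 2310 CPM per kilobase in the mean of the 12 libraries. Next came Rps2 at 1775, Rps9 at 1694, Rpl13 at 1692 and Rplp0 at 1641 CPM per kilobase, and the neighbours Rps9 and Rpl13 were nearly level. The median member stood at 723 CPM per kilobase. In CPM, 75 members averaged over 100, 5 lay between 10 and 100, and 6 lay under 10. The low members include first copies of the ribosome: Rpl24 at 1.58 to 3.27 CPM and Rps10 at 4.91 to 8.00 CPM in the 4 group means, and Rpl13a at 39.7 to 47.4 CPM. In the annotation another gene on the same strand covers 71.5% of the Rpl24 transcript, 91.6% of that of Rps10, 59.3% of that of Rpl13a and 63.1% of that of the second copy Rpl36al. Those overlapping genes were themselves listed at 0 counts or nearly so, at no more than 0.109 CPM in any library. Counting can drop reads that fall in such an overlap, and its part in the levels of these 4 members was not tested.

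Replicate libraries were close for most members, with a median coefficient of variation of 2.40% in uridine cultures, 2.47% in vehicle cultures, 3.03% in uncultured aged cells and 3.60% in uncultured young cells. The spread exceeded 10% for 20 members in young cells and for 10 to 13 in the other groups. Rps27rt varied most, at 70.9, 33.8 and 115 CPM in the young libraries, and the library high for Rps27rt was the lowest for Rps27.

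The family as a whole was highest in uncultured aged cells and lowest in uridine cultures. The 86 members held 5.12, 4.98 and 5.23% of all counts in the young libraries and 6.00, 5.85 and 5.80% in the uncultured aged libraries. They held 4.92, 4.97 and 4.98% in vehicle cultures and 4.55, 4.48 and 4.45% in uridine cultures. The exact binomial interval of each of these shares at 95% confidence was at most 0.0222 percentage points wide, which covers counting error only. No library of uncultured aged cells overlapped any other group, and no uridine library did. Vehicle and young libraries were barely apart, with the highest vehicle library at 4.976% and the lowest young library at 4.978%. Of the counts outside immunoglobulin genes and Jchain, the members held 7.40 to 7.69% in uncultured aged libraries, 5.01 to 5.25% in young, 4.97 to 5.02% in vehicle and 4.48 to 4.58% in uridine libraries. The group mean was highest in uncultured aged cells for 81 of the 86 members and lowest in uridine cultures for 75. The order of group means was not counted over all genes, so these counts have no background share.

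**Figure D1:**
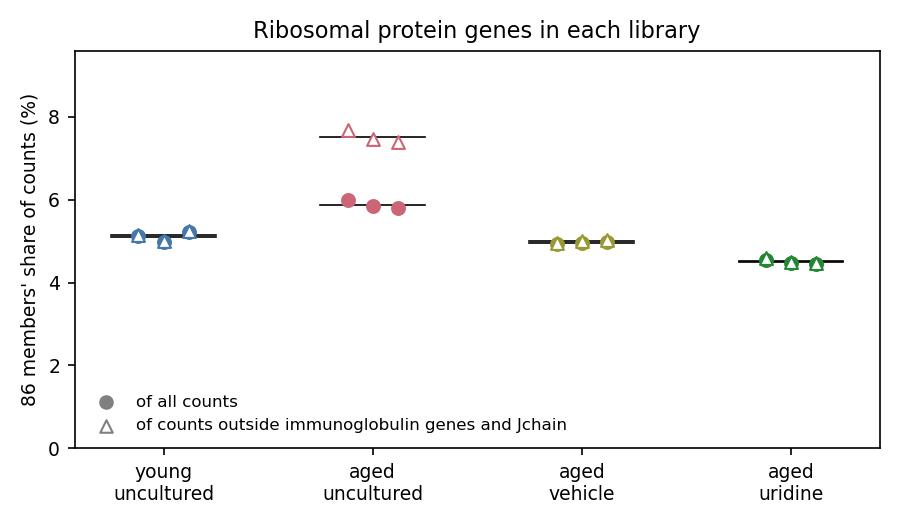
Share of counts in the 86 members (percent, y axis) for each of the 12 libraries by group; filled circles are shares of all counts, open triangles shares of counts outside immunoglobulin genes and Jchain, and lines are group means. The aged uncultured libraries sit at 5.80 to 6.00% of all counts and 7.40 to 7.69% of the remainder, above every other group, and the uridine libraries at 4.45 to 4.55% lie below.

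Uncultured aged cells were compared with uncultured young cells to ask how HSPCs differ with the age of the mouse. Ribosomal protein genes were higher in aged cells almost throughout: 77 of 86 members rose, 0 fell and 9 were not called in edgeR's test. At an unadjusted p under 0.05, 1 member (Rpl13a) was lower, and DESeq2 and limma voom called 0 lower. With 1 library left out or DESeq2's size factors in edgeR, 0 or 1 was called lower, Rpl13a or Rpl3l. The median log2 fold change of the members was 0.56, against 0.02 over all genes tested and -0.13 over the 4841 other genes at 50 CPM or more. Over all genes, 33.2% were called higher and 32.1% lower in this comparison. Among the roles, 40 of 43 large subunit genes (median 0.55), 29 of 30 small subunit genes (median 0.62), 3 of 3 stalk genes (median 0.67) and 5 of 10 second copies (median 0.34) rose. Called changes ran from 0.10 for Rpl15 to 1.44 for Rps27, and 60 of the 77 exceeded 0.5. Aged and young libraries were fully apart for 77 members, or 89.5%, against 66.9% of all genes tested. The 24 members with under 25% of their 100-base stretches in another gene and no gene overlapping them gave the same picture, with 21 higher and a median of 0.56. Markers of other cells moved between these groups as well: plasma cell (8 of 8), B cell (5 of 6) and T and NK cell markers (5 of 5) were higher, and neutrophil (8 of 8) and erythroid markers (8 of 8) lower. Of 5 stroma markers, 3 were lower and 2 higher in aged cells. Of 6 macrophage markers 1 was higher and 2 were lower, and of 12 stem and progenitor markers 5 were higher and 4 lower. Summed erythroid markers went from 307 to 314 CPM in young to 76.5 to 86.6 CPM in aged libraries. Summed stroma markers went from 509 to 539 to 12.7 to 13.7 CPM, and T and NK cell markers from 88.9 to 93.3 to 193 to 218 CPM. Their part in the rise of the members was not tested.

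The stalk proteins Rplp0, Rplp1 and Rplp2 form the flexible arm of the large subunit that recruits the GTPases of translation. Rplp2 stood at 451, 423 and 444 CPM in young and 817, 747 and 739 CPM in aged libraries (log2 fold change 0.81, SE 0.0301, edgeR adjusted p = 4.09e-23). Rplp0, which anchors the other stalk proteins, went from 2191, 2075 and 2140 to 2842, 2727 and 2727 CPM (log2 fold change 0.37, SE 0.0189, edgeR adjusted p = 4.28e-19). The aged libraries were above all young ones for both genes, and the change of Rplp2 was the larger on the log2 scale. Rpl5 and Rpl11, which bind 5S ribosomal RNA and can hold the p53 regulator Mdm2, rose by 0.55 and 0.61 on the log2 scale.

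In the small subunit, Rps27, a zinc-finger protein, rose the most. It stood at 132, 144 and 122 CPM in young libraries and 370, 388 and 318 CPM in aged ones (log2 fold change 1.44, SE 0.0511, edgeR adjusted p = 8.16e-24). With the counts of its identical copy Rps27rt added, the level was 206 ± 29.4 CPM in young cells and 436 ± 39.3 CPM in uncultured aged cells (SD, n = 3), and the log2 fold change was 1.09, an alternative added after seeing the data. Rps27l, a p53 target, did not follow: it stood at 72.4, 70.5 and 74.1 CPM in young and 79.4, 86.8 and 67.6 CPM in aged libraries, and the libraries of the groups overlapped (log2 fold change 0.11, edgeR adjusted p = 0.0994). Within each library, Rps27l counts were 54.9, 49.0 and 61.0% of Rps27 counts in young cells and 21.5, 22.3 and 21.2% in aged cells, a ratio that no scaling can change.

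The next largest rises were those of Rpl36al, Rpl21 and Rpl38. Rpl38, which takes part in the selective translation of Hox messengers, went from 90.8, 85.2 and 121 to 185, 192 and 158 CPM (log2 fold change 0.85, SE 0.0717, edgeR adjusted p = 6.82e-13). Rpl21 rose from 94.0, 98.2 and 128 to 195, 240 and 186 CPM, without overlap (log2 fold change 0.96). Rpl36al, a second copy of Rpl36a, went from 4.70, 6.73 and 5.30 to 14.6, 15.5 and 14.5 CPM (log2 fold change 1.42, SE 0.144). Its level rests on few counts and, as given above, on a transcript overlapped by another gene.

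A second fit scaled each library to the summed counts of the members, so that a shift shared by the family cancels and a member's own departure remains. The median of the members is then near 0 by construction, at 0.02, and 31 members were higher and 21 lower than the family in aged cells, with 34 not called. With this scaling, 13.2% of all genes were called higher and 61.2% lower, since most genes did not rise with the family. The 5 members furthest above the family were Rps27, Rpl36al, Rpl21, Rpl38 and Rps29, at 0.89, 0.87, 0.41, 0.31 and 0.30 on the log2 scale. The call for Rps29 was lost without the uncultured aged library 2, in which it stood at 301 CPM against 242 and 199 CPM in the other aged libraries. The 5 furthest below were Rpl3l, Rpl13a, Rpl7l1, Rps27rt and Rpl15, at -1.18, -0.68, -0.56, -0.45 and -0.44. Of these, Rpl3l, a form known from striated muscle, averaged 2.61 CPM in young cells and 1.67 CPM in uncultured aged cells, and Rps27rt varied too much among young libraries for its value to be read: it was 0.0043, with the sign turned, without the young library 3.

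Rpl15 and Rpl7l1 are measured better. Rpl15, a core protein of the large subunit, stood at 552, 525 and 525 CPM in young and 581, 567 and 573 CPM in aged libraries, a rise of 0.10 in log2 units (SE 0.0246, adjusted p = 0.000407 in edgeR). Rpl7l1, a relative of Rpl7, stood at 108, 103 and 106 CPM in young and 107, 109 and 98.5 CPM in aged libraries, which overlap. Rps2, near the messenger entry site of the small subunit, rose by only 0.17 and lay 0.38 below the family. Rpl4 and Rpl3, both of the large subunit, rose by 0.30 and 0.37, each below the family.

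**Figure D2:**
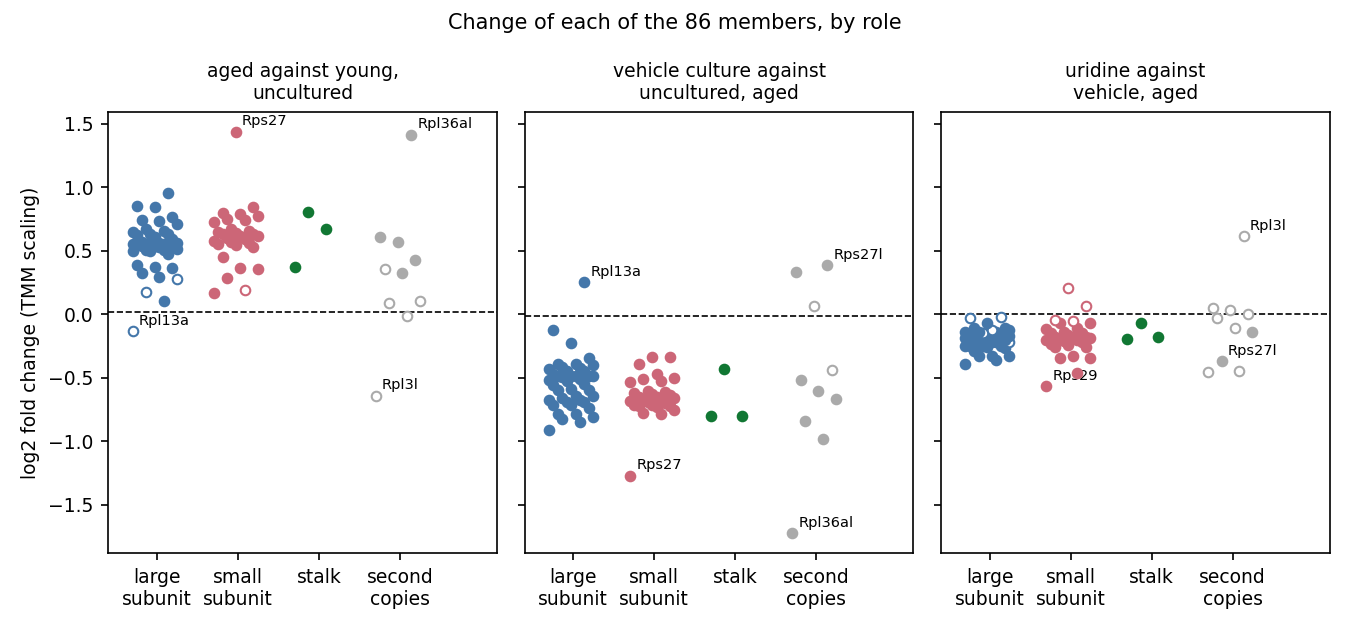
Log2 fold change under TMM scaling (y axis) of each of the 86 members by role, in 3 comparisons; filled points passed an adjusted p of 0.05, open points did not, and the dashed line is the median of all genes tested. Members lie mostly above the line in aged cells (median 0.56) and below it in vehicle culture (median -0.61) and with uridine (median -0.18).

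Vehicle cultures were compared with uncultured aged cells to ask what culture itself changed. Ribosomal protein genes were lower after culture: 81 of 86 members fell, 3 rose and 2 were not called. The median log2 fold change of the members was -0.61, against -0.01 over all genes tested and 0.12 over the other genes at 50 CPM or more. Over all genes, 35.1% were called lower and 35.4% higher. The uncultured aged libraries also enter the comparison above, so the rise there and the fall here share those libraries and are not independent. Among the roles, 42 of 43 large subunit genes, 30 of 30 small subunit genes, 3 of 3 stalk genes and 6 of 10 second copies fell. The libraries did not overlap for 83 members (96.5%), against 71.5% of all genes. The level summed over the members was nearer to that of young cells after culture, with 48288 ± 1247 CPM in young, 70442 ± 1223 in uncultured aged and 47026 ± 269 in vehicle-cultured cells (SD, n = 3). Summed plasma cell markers fell to 1044 to 1092 CPM and B cell markers from 1776 to 1862 CPM to 40.0 to 43.2 CPM, while macrophage markers were at 124 to 135 CPM before and 654 to 673 CPM after culture. Of 6 macrophage markers, 4 were higher and 2 lower after culture, and of 12 stem and progenitor markers 5 were higher and 2 lower. Erythroid (8 of 8), stroma (5 of 5) and T and NK cell markers (5 of 5) were lower, and of 8 mature neutrophil markers 7 were lower and 1 higher. What part these cell types had in the fall of the members was not tested.

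The 3 members that rose in culture were Rps27l, Rpl7l1 and Rpl13a. Rps27l went from 79.4, 86.8 and 67.6 to 101, 99.2 and 105 CPM (log2 fold change 0.38, SE 0.0557, edgeR adjusted p = 1.63e-07). Rpl7l1 went from 107, 109 and 98.5 to 132, 133 and 131 CPM (log2 fold change 0.33, SE 0.0419, edgeR adjusted p = 9.66e-09). Rpl13a, which also serves in a complex that silences inflammatory messengers, went from 41.7, 38.4 and 39.0 to 48.3, 45.9 and 47.9 CPM (log2 fold change 0.25, edgeR adjusted p = 0.000492). The groups did not overlap for any of these genes, and the count of Rpl13a carries the overlap named above.

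The deepest falls were those of Rpl36al, Rps27 and Rpl3l, at -1.72, -1.27 and -0.99 on the log2 scale. Rps27 dropped from 370, 388 and 318 to 152, 152 and 142 CPM, and the fall was -1.10 with the counts of Rps27rt added. Rps27l counts thereby reached 66.1, 65.4 and 74.2% of Rps27 counts, above the 21.2 to 22.3% of the uncultured aged libraries. This ratio carries the same limit, with Rps27rt counts at 33.8, 28.5 and 48.1% of Rps27 counts in vehicle cultures. Rpl3l rests on a mean of 0.838 CPM in vehicle cultures. Rplp1 and Rplp2 each fell by 0.80 on the log2 scale, and Rplp0 fell by 0.43.

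Relative to the family, 31 members were higher and 30 lower in vehicle cultures, against 61.1% of all genes called higher and 17.0% lower with that scaling. The large subunit had 21 members above the family and 11 below, the small subunit 6 above and 15 below. Below the family lay Rpl12, which forms the base of the stalk and went from 1295, 1242 and 1237 to 671, 683 and 650 CPM, 0.33 lower than the family on the log2 scale. Rpl36 and the copy Rps12-ps3 lay 0.26 below. Rpl15 lay 0.46 above the family, at 526, 524 and 529 CPM in vehicle cultures against 567 to 581 CPM before.

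**Figure D3:**
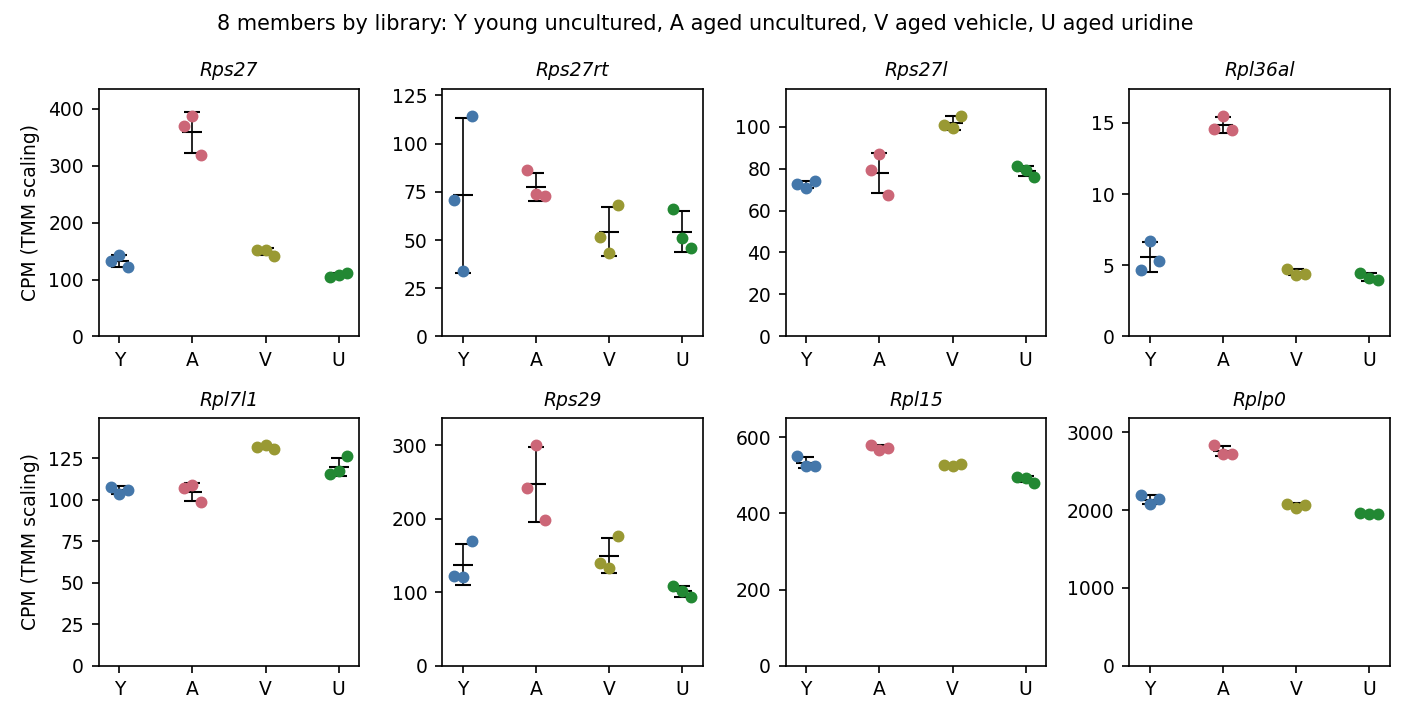
CPM under TMM scaling (y axis) of 8 members in each of the 12 libraries by group; points are libraries, and bars show the group mean and SD. Rps27 is highest in the aged uncultured libraries (318 to 388 CPM), Rps27l and Rpl7l1 are highest in vehicle cultures, and Rps27rt spreads from 33.8 to 115 CPM among the young libraries.

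Uridine cultures were compared with vehicle cultures to ask what uridine changed in cultured aged cells. Ribosomal protein genes were slightly lower with uridine: 69 of 86 members fell, 0 rose and 17 were not called in edgeR's test. At an unadjusted p under 0.05, 1 member (Rps3a1) was higher, DESeq2 called 0 higher and limma voom called that 1. The median log2 fold change of the members was -0.18, against 0.00 over all genes tested. Over all genes, 18.1% were called lower and 20.0% higher. Called falls ran from -0.57 for Rps29 to -0.07 for Rpl4, and 1 of the 69 exceeded 0.5. The medians of the roles lay close together, at -0.19 for 43 large subunit genes (38 fell), -0.18 for 30 small subunit genes (26 fell) and -0.18 for 3 stalk genes (3 fell), while 2 of 10 second copies fell. The libraries did not overlap for 70 members (81.4%), against 50% of all genes. Of the 24 members little shared with other genes, 23 fell.

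Rps29, a short zinc-binding protein of the small subunit, fell the most, from 140, 133 and 177 to 109, 101 and 93.2 CPM (log2 fold change -0.57, SE 0.103, edgeR adjusted p = 3.02e-05). Rps27 followed, from 152, 152 and 142 to 104, 108 and 111 CPM (log2 fold change -0.47, SE 0.0532, edgeR adjusted p = 5.15e-09), or -0.32 with Rps27rt added. Rpl30 went from 310, 247 and 297 to 225, 211 and 215 CPM (log2 fold change -0.39, SE 0.0570, edgeR adjusted p = 5.89e-07). Rps27l fell as well, from 101, 99.2 and 105 to 81.1, 79.4 and 76.0 CPM (log2 fold change -0.37, edgeR adjusted p = 8.17e-07). In each of these 4 genes every uridine library lay below every vehicle library. The called members with the smallest changes were Rpl4, Rps3, Rps2 and Rplp0, all at -0.07. Rplp0 went from 2085, 2024 and 2061 to 1970, 1947 and 1956 CPM (log2 fold change -0.07, SE 0.0189, edgeR adjusted p = 0.00273).

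Relative to the family, 10 members were higher and 19 lower with uridine, against 35.6% of all genes called higher and 6.78% lower with that scaling. The count of 19 dropped to 11 without the vehicle library 3 and likewise without the uridine library 2. Furthest above the family were Rps3a1, Rpl9-ps6, Rpl22l1, Rpl3 and Rps12-ps3, at 0.23, 0.21, 0.20, 0.14 and 0.13. Rps3a1, at the messenger exit of the small subunit, stood at 896, 919 and 828 CPM with vehicle and 931, 904 and 935 CPM with uridine, overlapping in level (log2 fold change 0.07, edgeR adjusted p = 0.0522). Rpl22l1, the partner copy of Rpl22, stood at 61.6, 66.2 and 61.1 CPM with vehicle and 67.1, 65.3 and 61.4 CPM with uridine, also overlapping. Its counts were 22.6 to 24.4% of those of Rpl22 with vehicle and 25.9 to 27.7% with uridine. Furthest below the family were Rps29, Rps27, Rpl30, Rps27l and Rpl38, at -0.40, -0.30, -0.23, -0.21 and -0.20, and the call for Rpl38 was lost without the vehicle library 3 or the uridine library 2.

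Markers of other cells differed between the cultures too. With uridine, 7 of 8 mature neutrophil markers were higher and 1 lower. Of the erythroid markers 8 of 8 were higher, and of the stroma markers 4 of 5 were higher and 1 was not called. Mature neutrophil markers summed to 317 to 325 CPM with vehicle and 2025 to 2099 CPM with uridine, and erythroid markers to 6.76 to 9.88 CPM (Slc4a1 at 0) and 108 to 109 CPM. Stroma markers summed to 1.81 to 2.69 CPM and 143 to 153 CPM. B cell markers (6 of 6) and T and NK cell markers (4 of 5, with 1 not called) were higher. Of 6 macrophage markers 1 was higher and 4 were lower, and of 8 plasma cell markers 2 were higher and 4 lower. Of 12 stem and progenitor markers, 2 were higher and 6 lower. Over all genes, 20.0% were called higher and 18.1% lower. The part of these cell types in the fall of the members was not tested.

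Aged against young and uridine against vehicle share no library, so their changes can be set side by side. Across the 86 members, the changes scaled to the family had a Pearson correlation of -0.54 and a Spearman correlation of -0.40, and across the 80 members at 10 CPM or more these were -0.45 and -0.45. The points are genes that share libraries, depth and, in part, reads, and are not independent. Called above the family in aged cells and below it with uridine were 11 members, among them Rpl36, Rpl38, Rps19, Rps27 and Rps29. Called below it in aged cells and above it with uridine were 7: Rpl22l1, Rpl3, Rpl4, Rpl9-ps6, Rplp0, Rps2 and Rps3a1. Rps27l was below it in both comparisons. Over all genes with this scaling, 13.2% were called higher and 61.2% lower in aged cells, and 35.6% higher and 6.78% lower with uridine. Joint calls were not counted over all genes, so the counts of 11 and 7 have no background share.

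**Figure D4:**
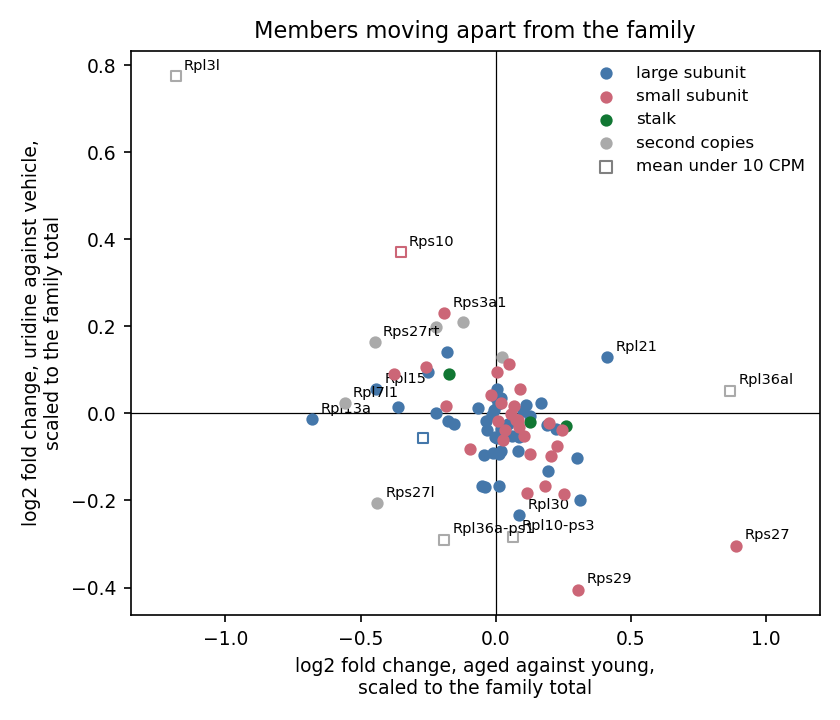
Log2 fold change scaled to the family total, in aged against young cells (x axis) and in uridine against vehicle cultures (y axis), for the 86 members coloured by role; open squares average under 10 CPM. Rps27 and Rps29 lie at the lower right, Rps3a1 lies above and left of the centre, the scarce Rpl3l lies far to the upper left, and the Pearson correlation across members is -0.54.

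Members were also split by transcript length. The 44 members with a transcript under 700 bases had a median of 0.59 in aged against young cells and -0.20 with uridine, against 0.55 and -0.15 for the 42 longer members. The Spearman correlation of the family-scaled change with length was -0.23, 0.17 and 0.33 in the 3 comparisons, in the order given above. Among the other protein-coding genes at 50 CPM or more, the 82 with short transcripts had a median of -0.14 with uridine (44 fell), against 0.01 for the 4612 longer ones. What length had to do with the changes of the members was not tested. Medians were also taken by the start letters shown above: the 30 with the pyrimidine run had a median of 0.56 in aged cells, -0.54 in vehicle culture and -0.18 with uridine, and the 32 without had 0.55, -0.65 and -0.18. None of these gaps between medians was tested.

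Of 4 ribosome proteins whose symbols the rule misses, 4 rose in aged cells, 3 fell in vehicle culture and 3 fell with uridine. The remaining gene was not called in either of the latter. The shares over all genes were 33.2% higher in aged cells, 35.1% lower in vehicle culture and 18.1% lower with uridine. Fau, which encodes a small subunit protein fused to a ubiquitin-like one, stood at 488, 458 and 484 CPM in young, 924, 926 and 891 in uncultured aged, 482, 504 and 487 in vehicle and 431, 422 and 412 in uridine libraries. Its log2 fold changes were 0.94, -0.90 and -0.22, and each passed the test. Rpsa and Rack1 rose by 0.49 and 0.42 in aged cells, fell by 0.65 and 0.57 in culture and fell by 0.10 and 0.09 with uridine.

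The list of ribosomal protein genes whose human counterparts are mutated in Diamond-Blackfan anaemia holds 18 members. In aged cells 17 of these 18 rose (median 0.57), in vehicle culture 18 fell (median -0.62) and with uridine 16 fell and 2 were not called (median -0.18, highest value 0.21). Over all genes, 33.2% were called higher in aged cells, 35.1% lower in vehicle culture and 18.1% lower with uridine. Rps19, the gene most often mutated in the disease, was higher in aged cells by 0.75 and lower with uridine by -0.26 on the log2 scale.

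In the lists of elongation and initiation factors, genes were called in both directions. The elongation list also holds genes that are not elongation factors, among them the release factors Gspt1 and Etf1, the kinase Eef2k, and Tpt1. Of its 11 genes, 6 rose and 4 fell in aged cells (median 0.25), the falls including Gspt1 and Eef2k. In vehicle culture 6 fell and 5 rose (median -0.29), and 5 fell and 1 rose with uridine (median -0.09). Tpt1, whose messenger carries the same kind of pyrimidine tract, followed the ribosomal proteins, with log2 fold changes of 0.80, -0.97 and -0.12. Eef1a1, which delivers transfer RNA, changed by 0.28, -0.35 and -0.12, and Gspt1, a release factor, by -0.69 in aged cells. Of 35 initiation factors, 13 rose and 19 fell in aged cells (median -0.10), with Eif1 at 0.84, Eif3f at 0.73, Eif4g1 at -0.59 and Eif2s3x at -0.76. In vehicle culture 14 rose and 16 fell (median -0.04), and with uridine 9 rose and 10 fell (median -0.03). In aged cells, 54.5% of the elongation list and 37.1% of initiation factors were higher, against 29.3% of the other genes at 50 CPM or more. The shares lower were 36.4 and 54.3%, against 52.6%. In vehicle culture 54.5 and 45.7% were lower, against 32.5%, and with uridine 45.5 and 28.6%, against 27.2%.

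Of 20 regulators of ribosomal protein messengers, 3 rose and 10 fell in aged cells (median -0.18), 12 rose and 4 fell in vehicle culture (median 0.22), and 7 rose and 7 fell with uridine (median 0.05). Of the other genes at 50 CPM or more, 29.3% were higher and 52.6% lower in aged cells, and 51.6% higher and 32.5% lower in vehicle culture. The shares of 50% lower and 60% higher among the regulators lie near that background. With uridine 35% of the regulators were higher and 35% lower, also near the 31.5 and 27.2% of those other genes. Larp1, the protein that binds the pyrimidine tract, stood at 382, 380 and 380 CPM in young, 270, 279 and 292 in uncultured aged, 416, 392 and 403 in vehicle and 431, 428 and 430 in uridine libraries. Its log2 fold changes were -0.44, 0.53 and 0.09. Mtor, the kinase that controls Larp1, changed by -0.57, 0.45 and 0.20. Mycn rose in culture, from 5.26, 5.08 and 6.48 to 41.5, 43.4 and 43.4 CPM, and fell by 0.55 on the log2 scale with uridine.

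Of 49 ribosome assembly factors tested, 9 rose and 21 fell in aged cells (median -0.05), 22 rose and 14 fell in vehicle culture (median 0.09), and 9 rose and 9 fell with uridine (median -0.03). In aged cells 42.9% were lower, against 52.6% of the other genes at 50 CPM or more. The shares higher were 44.9% against 51.6% in vehicle culture and 18.4% against 31.5% with uridine. Heatr1, which acts early in small subunit assembly, changed by -0.85 in aged cells and 0.71 in culture, opposite in sign to the members. The mitochondrial ribosome has its own proteins, and of 77 of these genes 31 rose and 5 fell in aged cells (median 0.10), 23 rose and 17 fell in vehicle culture (median 0.00), and 1 rose and 33 fell with uridine (median -0.14). These are 40.3% higher in aged cells against 33.2% of all genes, 29.9% higher in vehicle culture against 35.4%, and 42.9% lower with uridine against 18.1%. Among the other genes at 50 CPM or more, the same 3 shares were 29.3, 51.6 and 27.2%.

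**Figure D5:**
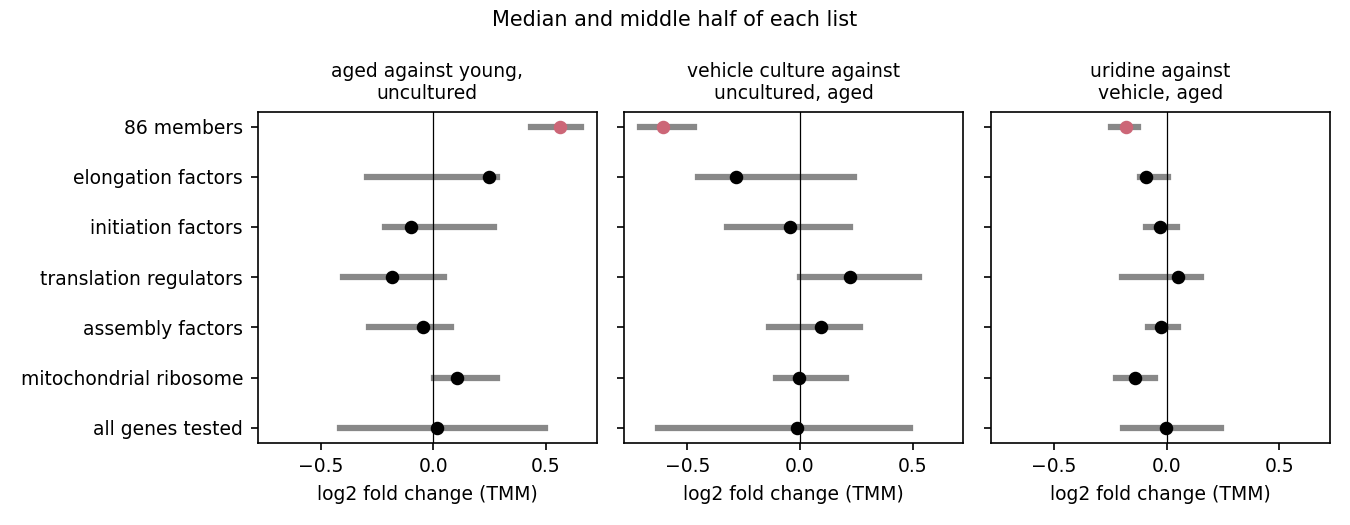
Median (point) and middle 50% of genes (bar) of the log2 fold change under TMM scaling (x axis) for the 86 members and other translation lists (y axis) in 3 comparisons. The members sit at 0.56, -0.61 and -0.18, while the medians of assembly and initiation factors run from -0.10 to 0.09.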

How the data were processed

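The authors deposited 1 table of raw counts, with Ensembl gene IDs in rows and 12 libraries of polyadenylated RNA in columns. Reads of 150 bases in pairs had mm10 as their reference and HISAT2 2.0.5 as their aligner, per the labels' protocols and the submitters' processing notes. How reads were assigned to genes, and whether strand was used, is not given in the sources used here. Groups came from the sample titles. GENCODE M21 gave symbols and biotypes for 54495 IDs, and 37 IDs did not match and stayed in the tests. The family and the lists were chosen with earlier results of these data known, although the rule for members uses no difference between groups.

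edgeR 4.0.16 (R 4.3.3) was used: filterByExpr on the 4 groups, TMM factors, and quasi-likelihood tests on 1 mean per group over 12 libraries, adjusted by Benjamini-Hochberg over 16675 genes. The common coefficient of variation was 0.0438. A second fit used each library's summed member counts as its size. Shares, ratios between copies and correlations are descriptions without tests. Shared stretches are 100-base words of a member's reference transcript found in another annotated gene. Named members were, per comparison, the 5 called furthest above and below the family and the 3 with the largest and smallest changes under TMM, the 5 most abundant per kilobase, copy pairs, stalk and 5S particle proteins, and up to 4 called genes with the smallest p per other list, and ribosome proteins that the symbol rule misses. Some genes that this rule or a shared call pattern would name are not reported here. Alternatives were DESeq2 1.42.0, limma 3.58.1 (voom), other scalings and filters, fewer libraries and a replicate block. Replicate pairs differed by more than sampling noise (chi-square 2.27 to 3.94 per degree of freedom). The fits were checked on simulated data.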

Additional observations from a re-analysis of the deposited data

How the results depend on the processing

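The direction of the members held under every alternative run. In aged against young cells 74 to 79 members were higher (median log2 fold change 0.55 to 0.59), in vehicle culture 78 to 81 were lower and 3 higher, and with uridine 65 to 71 were lower. The median in vehicle culture was -0.67 with upper quartile factors. With 1 library left out, 0 to 1 members were lower in aged cells, and 1 with DESeq2's size factors in edgeR. With uridine, 1 member was higher under limma voom, upper quartile factors, no filter on low counts, a filter of 1 CPM in 3 libraries and a fit of the 6 libraries compared, and 0 to 1 with 1 library left out. Relative to the family, the members lower with uridine numbered 11 to 16 with 1 library left out, against 19 with all. Outside immunoglobulin genes, the difference in the members' share of counts was 2.38 percentage points in aged cells and -2.52 in vehicle culture, against 0.774 and -0.929 of all counts. Among the 24 members little shared with other genes, an alternative added after seeing the data, 8.3% were higher in vehicle culture, against 3.5%. Of 1158 checks of named members under TMM scaling, 27 lost the call, and of 590 relative to the family 40 did and 1 turned: Rps27rt in aged cells, which ran from -0.78 to 0.0043 with 1 library left out, the latter without the young library 3. The cause was not tested.

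No pairing of libraries by replicate number was seen: the correlation of deviations between libraries of the same number was -0.047 to 0.015. A shared source that affected few genes would not show in this value, so pairing is not excluded. With the replicate number as a block, 76 members were higher in aged cells, 81 lower in vehicle culture, and 69 lower and 1 higher with uridine. With 3 libraries a group and counts split between near-identical copies, members such as Rps27rt and those under 10 CPM are poorly measured.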
